A study of Homo sapiens with 6 samples.

Results

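The nuclear lamina is a meshwork of lamin filaments under the inner nuclear membrane. A-type and B-type lamins build the meshwork, membrane proteins such as the lamin B receptor and emerin hold chromatin and lamins to it, and the LINC complex, made of SUN proteins in the inner membrane and nesprins in the outer membrane, couples it to the cytoskeleton. The lamina carries much of the silent chromatin at the nuclear rim, and the envelope that it lines is taken apart and rebuilt at every mitosis. Transcripts of 10 genes of this structure are described here in cells with and without ARID1A, the DNA-binding subunit of the BAF chromatin remodeling complex. The genes were taken by name from the 57820 genes of the count tables, and all 10 were found: the lamin genes LMNA, LMNB1 and LMNB2, the genes of the lamin-binding inner membrane proteins LBR, EMD and TMPO, the LINC complex genes SUN1, SUN2 and SYNE2, and TMEM201. They were taken by name and not by a measured value, although earlier results of the data were known when they were chosen.

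RNA-seq was performed on 3 WT and 3 ARID1A-KO samples of AID-DIvA cells, numbered 3 to 5 in each genotype. AID-DIvA is a line made from U2OS, a human osteosarcoma line, and carries the restriction enzyme AsiSI, which enters the nucleus and cuts DNA only when 4-hydroxytamoxifen is added. All 6 samples were untreated, so both genotypes carried the AsiSI transgene and neither had been given the inducer. ARID1A-KO cells had been made with CRISPR guide RNAs against exon 1 of ARID1A and grown from clones, and the clone that was sequenced is not given in the sources used here, so ARID1A loss and differences of a clone cannot be told apart. The labels number the replicates without saying whether they were separate cultures, and the study's legends call the RNA-seq data biological replicates of independent experiments.

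Reverse-stranded counts totalled between 54512105 and 84088708 per sample. ARID1A itself had 173 ± 6.67 CPM (counts scaled to the library total) in WT and 25.9 ± 1.38 in ARID1A-KO samples (SD, n = 3 each), with all 3 ARID1A-KO samples below all WT samples. The first principal component held 75.1% of the variance and separated the genotypes. Mitochondrial transcripts took 5.85% to 6.08% of counts in WT and 6.31% to 6.99% in ARID1A-KO samples, without overlap. Of 9 osteoblast lineage markers, 6 passed the filter on low counts, SP7, BGLAP and IBSP did not, and the summed level of the list was 1235 to 1295 CPM in WT and 726 to 809 CPM in ARID1A-KO samples. SPARC and COL1A1 held most of this sum (757 and 447 CPM in WT), while RUNX2 had 15.0 CPM in WT and 14.6 CPM in ARID1A-KO samples. Of 6 epithelial markers, CLDN3 had no count in any sample, and the list summed to 726 to 839 CPM in WT and 496 to 521 CPM in ARID1A-KO samples. Of 6 blood markers, HBB had no count in any sample, and the list summed to 1.72 to 2.91 CPM in WT and 0.338 to 0.898 CPM in ARID1A-KO samples. The part of these differences in the results below was not tested.

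LMNB2 and TMEM201 are the members with an AsiSI recognition motif close to their start, which is also why they belong to the genes near break sites in this system. In GRCh37, LMNB2 holds 3 motifs in introns, 392, 894 and 995 bp into the gene, and TMEM201 holds 1 motif in an intron, 513 bp into the gene. The motif is GCGATCGC, which reads the same on both strands, and it occurs 1216 times in the genome. Of all 57820 genes in the tables, 274 (0.474%) have a motif within 1000 bp of their annotated start, a share that says nothing about these 2 genes since their place near break sites was known. The sites are shown with 20 bases on each side, on the strand of the gene, and capitals mark the motif. The study's list of break sites holds 1 site for each of these 2 genes, at the TMEM201 motif and at the LMNB2 motif 894 bp into the gene. The LMNB2 sites at 392 and 995 bp are matches to the motif only.
LMNB2 site at 392 bp, chr19:2456575-2456622, minus strand: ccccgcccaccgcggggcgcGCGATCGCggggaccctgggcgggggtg
LMNB2 site at 894 bp, chr19:2456073-2456120, minus strand: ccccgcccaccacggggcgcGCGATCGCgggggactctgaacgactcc
LMNB2 site at 995 bp, chr19:2455972-2456019, minus strand: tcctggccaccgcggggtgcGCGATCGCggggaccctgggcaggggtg
TMEM201 site at 513 bp, chr1:9649425-9649472, plus strand: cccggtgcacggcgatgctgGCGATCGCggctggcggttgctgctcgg
The LMNB2 sites at 392 and 995 bp are near copies of each other, identical at 43 of 48 positions, while the site at 894 bp matches them at 34 and 30 positions. The TMEM201 site matches the 3 LMNB2 sites at 25 to 27 of 48 positions. Among the other members, LMNB1 has a motif in an intron 16015 bp from its start, the nearest motifs to SUN1 and EMD lie 38399 and 57204 bp from the start of each gene, and those of SUN2, SYNE2, LBR, LMNA and TMPO lie between 326040 and 1670479 bp away.

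All 10 members passed the filter, with between 1585 and 44734 counts per gene and sample, and 3 of them (30.0%) were called at an adjusted p under 0.05 in edgeR's quasi-likelihood test. LMNB2 was higher in ARID1A-KO samples, and LBR and SUN1 were lower. Fewer cells with a transcript and less transcript per cell cannot be told apart in these bulk samples. Over all 19599 genes tested, 36.2% were called, 17.8% as higher and 18.4% as lower, so the share of members called lay near the background. CPM of the genotypes did not overlap in 4 of the 10 members (LMNB2, LBR, EMD and SUN1), against 49.5% of all genes tested. The log2 fold change was negative in 9 of the 10 members, 2 of them called, and in 9626 of all 19599 genes tested. Among these members, LMNA, LMNB1, TMPO and TMEM201 had 95% intervals that included 0. The median over the members was -0.16 against 0.01 over all genes tested.

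**Figure D1:**
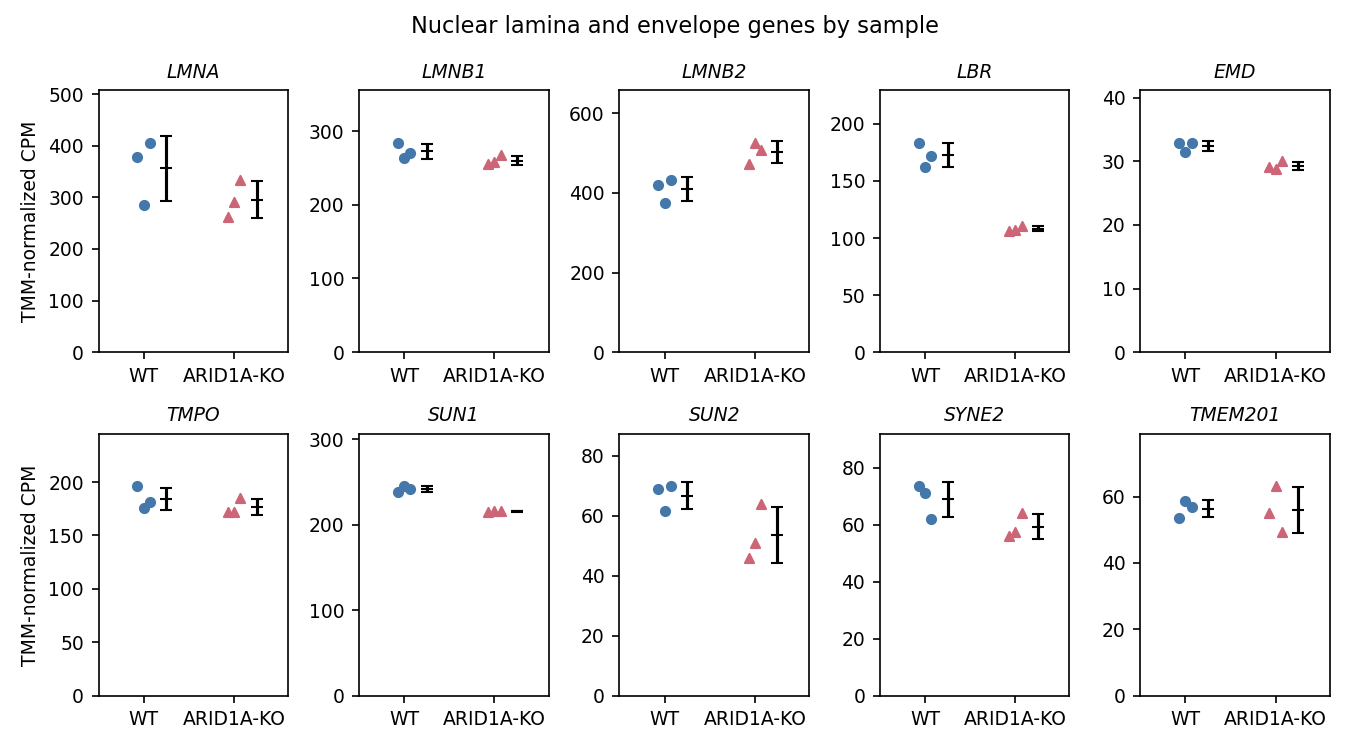
Each panel plots TMM-normalized CPM of 1 gene on a linear axis from 0, with a circle for each WT sample, a triangle for each ARID1A-KO sample, and the mean ± SD of each genotype (n = 3) as a black bar. LBR shows the widest gap, with WT samples at 162 CPM or more and ARID1A-KO samples at 111 CPM or less, and LMNA and SUN2 show groups that overlap.

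Among the lamin genes, LMNB2 was called and LMNA and LMNB1 were not. LMNB2 (ENSG00000176619.6, chr19:2427636-2456994, minus strand), which encodes lamin B2, had 421, 375 and 432 CPM in WT replicates 3, 4 and 5 and 473, 526 and 508 CPM in ARID1A-KO replicates 3, 4 and 5. All 3 ARID1A-KO samples lay above all WT samples. LMNB2 rose by a log2 fold change of 0.30 (SE 0.07, 95% interval 0.13 to 0.46), 1.23-fold, with an adjusted p of 0.0127. The call was lost without ARID1A-KO replicate 4 (0.26, adjusted p = 0.0629) and with an offset for exonic GC content (0.12, adjusted p = 0.236), the GC content of LMNB2 being 62.3% against a median of 47.8% over genes tested. TIMM13, which encodes a chaperone of the mitochondrial intermembrane space and whose annotated start overlaps the end of LMNB2 on the same strand, rose from 88.5 ± 2.47 to 122 ± 6.30 CPM, by a log2 fold change of 0.47 (adjusted p = 3.95e-04), and is named after its values were seen. Around LMNB2, the median log2 fold change of 208 neighbours (tested genes up to 5 Mb away) was 0.08, and after its subtraction LMNB2 had 0.21 (adjusted p = 0.0532).

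LMNB1 (ENSG00000113368.7, chr5:126112315-126172712, plus strand) encodes lamin B1, the other B-type lamin. Its levels were 284, 264 and 271 CPM in WT and 256, 257 and 267 CPM in ARID1A-KO samples, and the highest ARID1A-KO sample lay above the lowest WT sample. Its log2 fold change was -0.07 (SE 0.06, 95% interval -0.20 to 0.06, adjusted p = 0.386), which leaves out a difference of the size seen for LMNB2.

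LMNA (ENSG00000160789.15, chr1:156052364-156109880, plus strand) encodes lamins A and C, which are spliced from the same gene and cannot be separated in gene-level counts. It was the most variable member in WT, with 378, 285 and 406 CPM in WT replicates 3, 4 and 5 and 262, 290.5 and 333 CPM in ARID1A-KO replicates 3, 4 and 5. WT replicate 4 lay below 2 of the 3 ARID1A-KO samples, and the coefficient of variation was 17.7% in WT and 12.1% in ARID1A-KO samples. The log2 fold change was -0.27 (SE 0.13, 95% interval -0.57 to 0.03, adjusted p = 0.140), and it depended on single samples and settings. It passed the threshold without WT replicate 4 (-0.41, adjusted p = 0.0130), with no filter on low counts (-0.28, adjusted p = 0.00267) and with the GC content offset (-0.38, adjusted p = 0.0489), whereas without WT replicate 5 it was -0.17 (adjusted p = 0.396).

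Because a ratio of transcripts within a sample does not depend on how libraries are scaled, the lamins were also compared with each other in TPM (transcript abundance scaled to gene length and library total). The summed TPM of B-type lamins was 2.88, 3.47 and 2.65 times that of LMNA in WT replicates 3, 4 and 5 and 4.20, 4.03 and 3.50 times in ARID1A-KO replicates 3, 4 and 5. The genotypes did not overlap, but the lowest ARID1A-KO sample and the highest WT sample were almost level. The mean ratio was 3.00 ± 0.42 in WT and 3.91 ± 0.36 in ARID1A-KO samples (SD, n = 3 each), a log2 difference of 0.39, and an exact two-sided permutation test gave p = 0.1, the smallest that 3 samples against 3 allow. Leaving out each sample gave log2 differences of 0.30 to 0.50.

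Within the B-type lamins the proportions of LMNB2 and LMNB1 also differed between genotypes. LMNB2 TPM was 0.992, 0.950 and 1.07 times LMNB1 TPM in WT samples, and 1.24, 1.37 and 1.27 times in ARID1A-KO samples. The 2 B-type lamin transcripts were thus at about the same level in WT, and LMNB2 was the higher in each ARID1A-KO sample. Of the summed lamin TPM, LMNB2 made up 37.4% ± 0.44 in WT and 44.8% ± 1.35 in ARID1A-KO samples, LMNA 25.2% ± 2.56 and 20.4% ± 1.57, and LMNB1 37.4% ± 2.34 and 34.7% ± 1.19 (SD, n = 3). The first pair of shares did not overlap between genotypes, nor did those of LMNA, whereas those of LMNB1 did. The sum itself was 662 ± 56.5 TPM in WT and 675 ± 56.6 TPM in ARID1A-KO samples, with overlap. These shares and the ratio of the B-type lamins are descriptions and were not tested, and no GC content offset was applied to them.

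**Figure D2:**
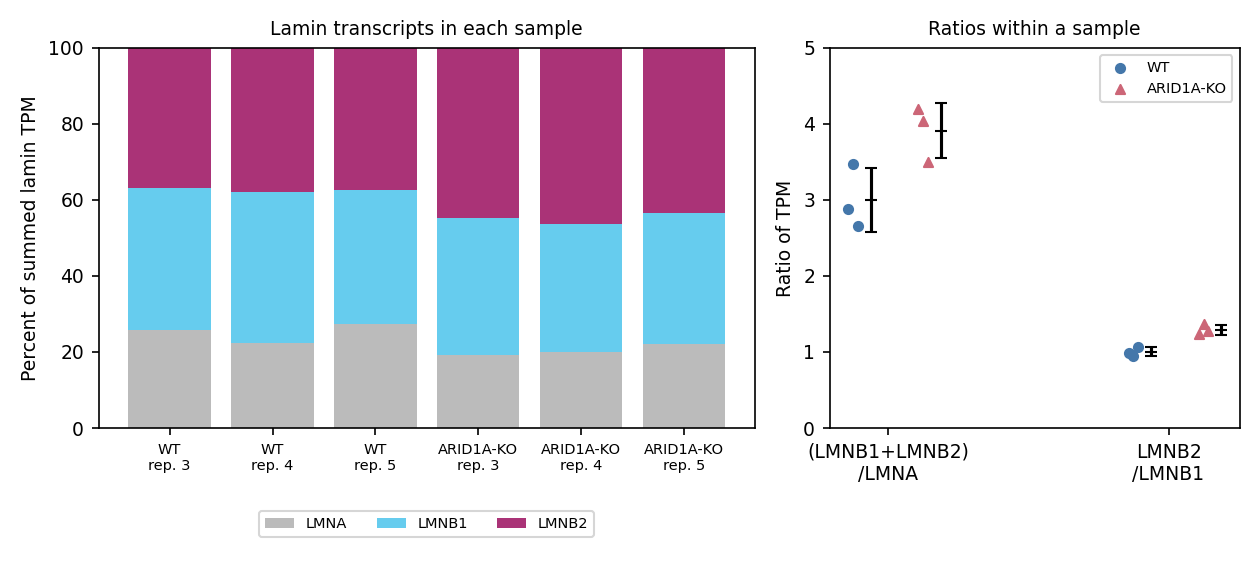
The left panel stacks the percent of summed lamin TPM taken by LMNA, LMNB1 and LMNB2 in each sample, and the right panel plots 2 ratios of TPM per sample on a linear axis from 0 with the mean ± SD of each genotype (n = 3). LMNB2 takes 36.9% to 37.8% in WT and 43.6% to 46.3% in ARID1A-KO samples, and the B-type to A-type ratio is 2.65 to 3.47 in WT and 3.50 to 4.20 in ARID1A-KO samples.

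Among the inner membrane proteins that bind lamins, LBR changed most, and its difference was the largest among the 10 members. LBR (ENSG00000143815.10, chr1:225589204-225616627, minus strand) encodes the lamin B receptor, which tethers heterochromatin and is also a sterol reductase of cholesterol synthesis. It had 183, 162 and 172 CPM in WT replicates 3, 4 and 5, and 106, 107 and 111 CPM in ARID1A-KO replicates 3, 4 and 5. All 3 ARID1A-KO samples lay far below all WT samples. LBR changed by -37.4%, a log2 fold change of -0.68 (SE 0.06, 95% interval -0.82 to -0.53, adjusted p = 5.65e-05). It kept its direction and call under each of 16 other settings, with log2 fold changes of -0.72 to -0.63, and its 82 neighbours had a median of 0.02.

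EMD (ENSG00000102119.6, chrX:153607557-153609883, plus strand) encodes emerin, a LEM domain protein that binds lamins and the chromatin protein BANF1. It had 32.9, 31.5 and 32.9 CPM in WT and 29.1, 28.8 and 30.1 CPM in ARID1A-KO samples. The genotypes did not overlap, and the log2 fold change of -0.14 (SE 0.06, 95% interval -0.29 to -0.003) did not pass the adjustment (adjusted p = 0.102). It passed with the offsets for GC content (-0.29, adjusted p = 0.00668) and exonic length (-0.22, adjusted p = 0.0231). TMPO (ENSG00000120802.9, chr12:98909290-98944157, plus strand), which encodes the LAP2 proteins, had 175 to 196 CPM in WT and 172 to 185 CPM in ARID1A-KO samples, with overlap. Its log2 fold change was -0.06 (SE 0.07, 95% interval -0.21 to 0.08, adjusted p = 0.483). LAP2 isoforms differ in whether they cross the membrane, and gene-level counts do not separate them. The antisense gene TMPO-AS1 lies over the start of TMPO, but counts were taken by strand, and TMPO-AS1, named for its overlap, had 4.18 to 5.27 CPM in WT and 4.48 to 6.98 CPM in ARID1A-KO samples.

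All 3 LINC complex members had lower means in ARID1A-KO samples, and SUN1 passed the test. SUN1 (ENSG00000164828.13, chr7:855528-936072, plus strand), an inner membrane SUN protein, was the steadiest member between replicates, with 239, 245 and 242 CPM in WT and 215, 216 and 216 CPM in ARID1A-KO samples. The 2 ranges were narrow and far apart relative to their width. SUN1 changed by -10.9%, a log2 fold change of -0.17 (SE 0.05, 95% interval -0.29 to -0.05, adjusted p = 0.0368). This call was lost when any of the 6 samples was left out (adjusted p = 0.0545 to 0.136), while the log2 fold change stayed between -0.18 and -0.16, and it was also lost with an offset for exonic length (-0.06, adjusted p = 0.435). GET4 (chr7:916189-936073) lies almost wholly within the end of SUN1 on the same strand, so strand does not separate reads of shared stretches. Unstranded counts of SUN2 and TMPO, which overlap genes on the other strand, were 82.3% to 94.2% and 86.9% to 92.6% of their reverse-stranded counts. Reads shared by overlapping genes were thus left out there. If this also holds on the same strand, GET4 counts are the reads that remained and do not give its level. GET4, named for its overlap with SUN1, had 3.44 to 4.06 CPM in WT samples. ARID1A-KO replicates 3, 4 and 5 had 4.52, 4.66 and 11.5 CPM of GET4 (adjusted p = 0.0652 in edgeR).

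SUN2 (ENSG00000100242.11, chr22:39130730-39190148, minus strand), the other widely expressed SUN protein, had 68.9, 61.5 and 69.8 CPM in WT replicates 3, 4 and 5 and 45.8, 50.9 and 63.8 CPM in ARID1A-KO replicates 3, 4 and 5. ARID1A-KO replicate 5 lay within the WT range and the other ARID1A-KO samples lay below it. The log2 fold change was -0.32 (SE 0.11, 95% interval -0.57 to -0.06) and the adjusted p was 0.0572. The difference passed without ARID1A-KO replicate 5 (-0.46, adjusted p = 0.00319) or without WT replicate 4 (-0.37, adjusted p = 0.0418), and DESeq2 called it as well (adjusted p = 0.0269). GTPBP1 and several noncoding genes lie over SUN2 on the other strand, and counts on that strand over SUN2 exons were 22.4% to 42.5% of its own, so strand mattered here: with unstranded counts the log2 fold change was -0.21 (adjusted p = 0.0911). DNAL4, over the start of SUN2, and a noncoding gene of 4 to 11 counts per sample lie on the same strand as SUN2. Strand does not separate reads of these shared stretches, and counts of DNAL4 may lack the reads that it shares with SUN2. DNAL4, named for this overlap, had 9.19 to 10.2 CPM in WT and 8.57 to 10.3 CPM in ARID1A-KO samples. SUN1 TPM was 1.89, 2.17 and 1.89 times SUN2 TPM in WT replicates 3, 4 and 5 and 2.56, 2.31 and 1.85 times in ARID1A-KO replicates 3, 4 and 5, which overlapped.

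SYNE2 (ENSG00000054654.11, chr14:64319683-64693165, plus strand) encodes nesprin-2, a giant outer membrane partner of the SUN proteins. It had 73.4, 71.2 and 61.8 CPM in WT replicates 3, 4 and 5 and 56.2, 57.5 and 64.1 CPM in ARID1A-KO replicates 3, 4 and 5. ARID1A-KO replicate 5 lay above WT replicate 5. The log2 fold change was -0.21 (SE 0.08, 95% interval -0.40 to -0.03) and the adjusted p was 0.0710, and it passed without WT replicate 5 (-0.29, adjusted p = 0.0261) or without ARID1A-KO replicate 5 (-0.27, adjusted p = 0.0301). The genes around SYNE2 had a value of the other sign, with a median of 0.25 over 79 neighbours, and relative to it SYNE2 had -0.46 (adjusted p = 0.00288). With an offset for exonic length, which is 31405 bases for SYNE2, the value was 0.03.

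TMEM201 (ENSG00000188807.8, chr1:9648932-9674935, plus strand) encodes SAMP1, an inner membrane protein associated with the LINC complex. Its levels were 53.6, 58.6 and 56.8 CPM in WT and 55.2, 63.1 and 49.4 CPM in ARID1A-KO samples. ARID1A-KO samples held both the highest and the lowest value. The log2 fold change was -0.01 (SE 0.09, 95% interval -0.22 to 0.19, adjusted p = 0.926), and its sign turned without WT replicate 4 (0.02) and without ARID1A-KO replicate 5 (0.07). Of the 2 genes with an AsiSI motif within 1000 bp of their start, LMNB2 was thus called and TMEM201 was not, and whether the 2 differ from each other was not tested.

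**Figure D3:**
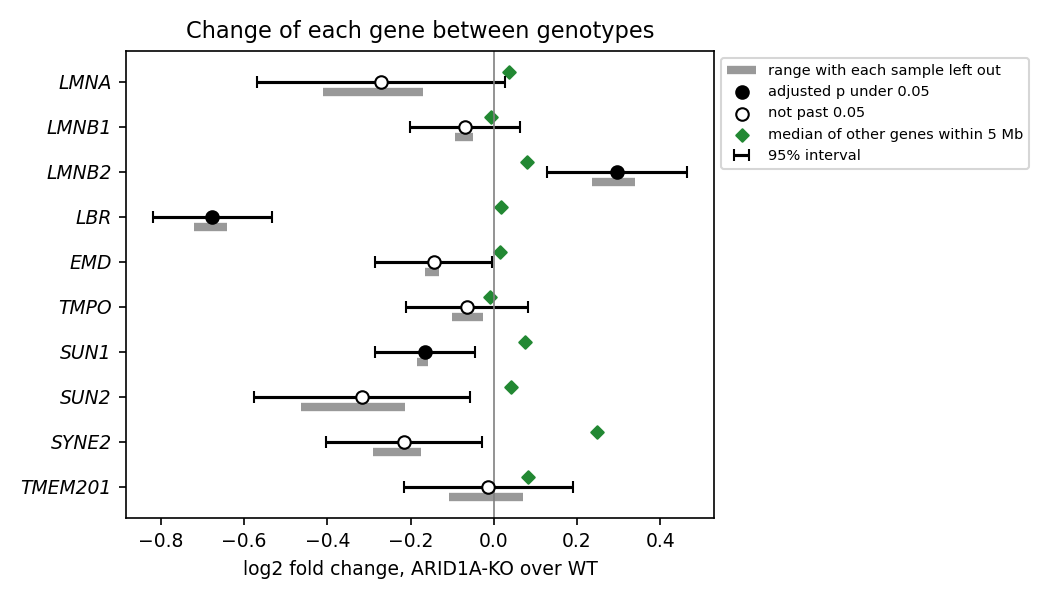
Points give the log2 fold change of each gene (ARID1A-KO over WT, n = 3 each), filled where the adjusted p is under 0.05, with black bars for 95% intervals, grey bars for the range with each sample left out, and diamonds for the median of the neighbours. LBR lies at -0.68 with a neighbour median of 0.02, LMNB2 at 0.30 with 0.08, and SYNE2 at -0.21 with 0.25.

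Levels of different genes can be compared in TPM. In WT samples LMNB2 (247 ± 18.9 TPM) and LMNB1 (247 ± 11.7) were highest and overlapped. LMNA followed at 168 ± 29.8 TPM, and then LBR at 108 ± 7.58 TPM. TMPO (70.5 ± 4.80) and SUN1 (66.7 ± 0.47) came next and overlapped. Below them lay EMD at 52.7 ± 1.59, SUN2 at 33.8 ± 2.43, TMEM201 at 26.4 ± 0.96 and SYNE2 at 7.20 ± 0.70 TPM, each without overlap with the next (SD, n = 3).

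The order of the means was the same in ARID1A-KO samples, but the distances were not. LMNB2 stood alone at 303 ± 24.1 TPM, above LMNB1 at 234 ± 13.6 TPM. LBR, at 67.3 ± 3.78 TPM, came down to the level of TMPO at 67.2 ± 5.07 TPM and overlapped it. SUN2 at 27.1 ± 5.66 TPM overlapped TMEM201 at 26.0 ± 2.98 TPM. LMNA, SUN1, EMD and SYNE2 had 139 ± 21.7, 59.2 ± 2.25, 47.5 ± 2.55 and 6.18 ± 0.66 TPM.

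The other genes of the envelope were read from a list of 44 genes, of which 42 were tested. In edgeR 12 of them were called higher and 5 lower in ARID1A-KO samples (40.5%, against 36.2% of all genes tested), and their median log2 fold change was 0.03. Among 10 LEM domain proteins and lamina partners, 5 were called (50.0%, against 36.2% of all genes tested). LEMD2 and PRR14 rose, and ANKLE1, IFFO1 and CBX5 fell. ANKLE1, a LEM domain endonuclease, fell from 2.81 ± 0.34 to 1.20 ± 0.19 CPM (log2 fold change -1.22, adjusted p = 6.70e-04), and the median of its neighbours was -0.36. IFFO1, a partner of lamin A, fell from 3.56 ± 0.07 to 1.86 ± 0.13 CPM (-0.94, adjusted p = 5.90e-04). LEMD2, PRR14 and CBX5, the HP1 alpha gene whose product binds LBR, are named after their values were seen and had log2 fold changes of 0.37, 0.23 and -0.29.

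Of 14 other inner membrane and lumen genes, 4 were called (28.6%, against 36.2% of all genes tested), all higher (background 17.8%). TOR1B, a torsin ATPase of the perinuclear space, rose from 65.8 ± 2.82 to 97.7 ± 4.78 CPM (0.57, adjusted p = 1.59e-04). CNEP1R1, the partner of the envelope phosphatase CTDNEP1, rose from 26.9 ± 2.50 to 36.8 ± 1.36 CPM (0.45, adjusted p = 0.00228). Its neighbours had a median of 0.31, and relative to them its call was lost (0.14, adjusted p = 0.221). The others, named after their values were seen, were NEMP2 (0.41) and PLPP7, which rose from 0.112 ± 0.020 to 0.573 ± 0.065 CPM and is close to the lowest levels tested.

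Of 7 other LINC complex genes, SUN5 and KASH5 did not pass the filter. The other 5 were tested, and 1 of them was called (20%, against 36.2% of all genes tested). This was SYNE3, the gene of nesprin-3, which binds plectin and through it intermediate filaments. SYNE3 fell from 5.26 ± 0.44 to 2.13 ± 0.11 CPM (-1.30, adjusted p = 8.56e-05). Its 6 samples did not overlap by genotype, which was also true of 49.5% of all genes tested. SYNE1, the gene of nesprin-1 and named after its values were seen, was at 267 ± 45.0 CPM in WT and 254 ± 18.9 CPM in ARID1A-KO samples (adjusted p = 0.651).

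Lamins with a CAAX end are farnesylated, clipped and carboxyl-methylated. Of 5 genes of these lamin processing steps, 2 were called (40.0%, against 36.2% of all genes tested), 1 higher and 1 lower. RCE1, a CAAX protease, rose (0.40, adjusted p = 0.00218) and ICMT, the methyltransferase, fell (-0.19, adjusted p = 0.0331). ZMPSTE24, the protease that matures prelamin A, was at 112 CPM in WT and 113 CPM in ARID1A-KO samples (adjusted p = 0.912). RCE1, ICMT and ZMPSTE24 are named after their values were seen.

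Of 8 genes of envelope resealing, which act with the ESCRT-III machinery that closes holes in the envelope after mitosis and rupture, 5 were called higher (62.5%, against 17.8% of all genes tested) and none lower, with a median log2 fold change of 0.32. IST1 rose from 144 ± 7.19 to 233 ± 10.8 CPM (0.69, adjusted p = 5.83e-05), VPS4A, the ATPase that takes the filaments apart, from 65.0 ± 4.64 to 94.9 ± 2.75 CPM (0.55, adjusted p = 2.80e-04), and CHMP4B, the main filament subunit, from 47.7 ± 2.58 to 67.8 ± 0.52 CPM (0.51, adjusted p = 2.50e-04). The neighbours of IST1 and VPS4A had medians of 0.53 and 0.56, and relative to these both calls were lost, with log2 fold changes of 0.16 for IST1 (adjusted p = 0.0881) and -0.01 for VPS4A (adjusted p = 0.921). CHMP4B was at 0.29 relative to its neighbours (adjusted p = 0.00703). The other called genes of this group were CHMP2A (0.40) and CC2D1B (0.23), named after their values were seen.

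Nuclear pore genes, whose products form the channels through the envelope, were read from a list of their own. Of 32 nucleoporin genes, 1 was called higher and 3 lower (12.5%, against 36.2% of all genes tested), with a median log2 fold change of -0.01. NUP210, a transmembrane nucleoporin, fell from 38.4 ± 4.87 to 25.0 ± 3.58 CPM (-0.62, adjusted p = 0.00346), and SEH1L, of the Y complex, from 138 ± 8.81 to 111 ± 4.08 CPM (-0.31, adjusted p = 0.00561). Relative to its neighbours, SEH1L had -0.12 and its call was lost (adjusted p = 0.205). NUP205, of the inner ring, fell from 162 ± 1.29 to 143 ± 2.96 CPM (-0.17, adjusted p = 0.0310), a call that was lost when any sample was left out (adjusted p = 0.0572 to 0.114) and relative to its neighbours (-0.07, adjusted p = 0.345). NUP93, of the inner ring as well, rose from 192 ± 13.3 to 234 ± 21.6 CPM (0.29, adjusted p = 0.0239), with a median of 0.29 over its neighbours, and its call was lost relative to them (-0.0081, adjusted p = 0.952) and without WT replicate 3 or 5 or ARID1A-KO replicate 3 or 4 (adjusted p = 0.0698 to 0.0962).

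**Figure D4:**
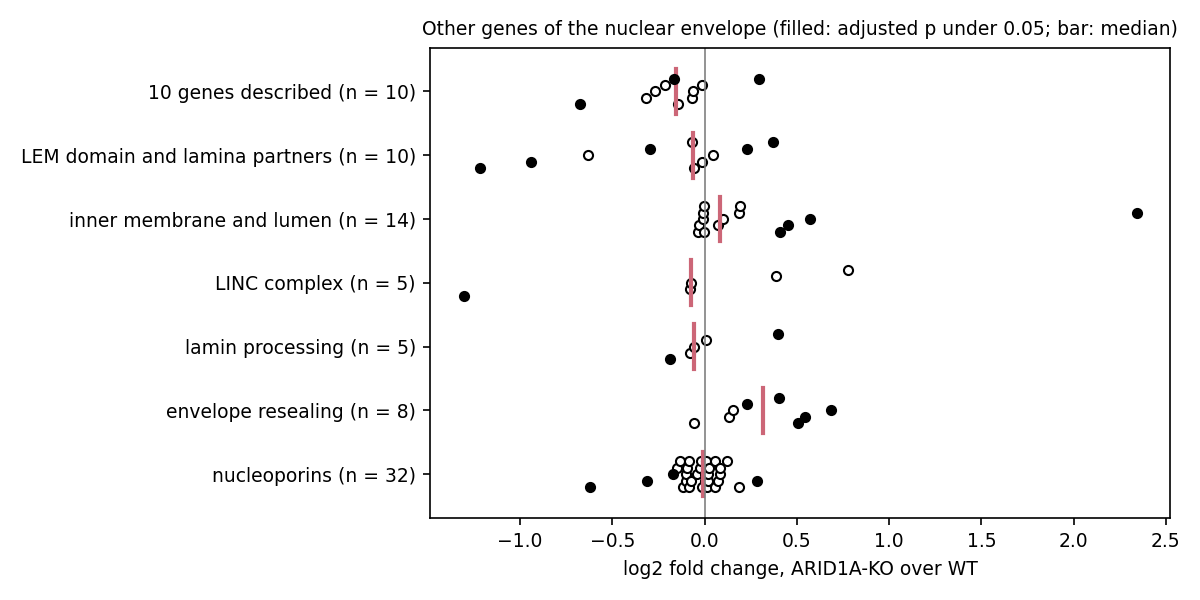
Each point is the log2 fold change (ARID1A-KO over WT, n = 3 each) of 1 gene that passed the filter, filled where the adjusted p is under 0.05, and vertical bars give group medians. The median of the envelope resealing genes is 0.32, that of the 32 nucleoporins is -0.01 and that of the 10 genes described is -0.16.

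Levels of lamin B1, LBR and LAP2 transcripts are known to follow cell division, so 15 proliferation genes are given beside them. Of these, 3 were called (20%, against 36.2% of all genes tested), MCM6 as higher and CCNA2 and MCM2 as lower, named after their values were seen. Without ARID1A-KO replicate 5, 7 of the 15 were called, 1 higher and 6 lower, against 7050 of all 19991 genes tested in that setting. The median log2 fold change was -0.11, and the summed level was 4701 to 5195 CPM in WT and 4443 to 4926 CPM in ARID1A-KO samples, with overlap. MKI67 had 647 CPM in WT and 586 CPM in ARID1A-KO samples (-0.14, adjusted p = 0.129), and TOP2A had 1094 and 964 CPM (-0.18, adjusted p = 0.126). TOP2A passed without ARID1A-KO replicate 5 (-0.25, adjusted p = 0.0317) and MKI67 relative to its neighbours (-0.22, adjusted p = 0.0316). The part of cell division in the difference of LBR was not tested.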

How the data were processed

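RNA-seq of untreated AID-DIvA cells was analysed in 3 WT and 3 ARID1A-KO samples. The authors aligned 100 bp paired reads to GRCh37 with STAR and counted them with featureCounts; the deposited tables hold raw whole-number counts for each gene, unstranded and by strand, and the authors' TPM values, of which the column with the same sum in every sample was used. The version of the gene annotation, v.29 lift 37, is taken from the methods, and the tables hold 57820 genes. The labels name polyA RNA, whereas the library kit is a stranded total RNA kit. Library totals of 54512105 to 84088708 reverse-stranded counts leave little counting error at the members' levels.

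The members and gene lists were chosen with earlier results of these data known. Reverse-stranded counts were filtered with filterByExpr, scaled by TMM and tested in edgeR 4.0.16 (R 4.3.3) by its quasi-likelihood test over all 19599 genes, with Benjamini-Hochberg adjustment and no covariate; CPM are TMM-normalized. The 95% intervals use the standard error and the total degrees of freedom of that test (residual plus the prior taken from all genes). They are not adjusted for the number of genes. The TPM ratio was tested by an exact permutation test (SciPy 1.17.1). AsiSI motifs were searched in GRCh37, and introns were read from GENCODE v44lift37. The genes named are the 10 members, ARID1A, MKI67, TOP2A and the called genes with the largest log2 fold change, up to 8 other envelope genes and 4 nucleoporin genes with a mean log2 CPM over 1 and no overlap between genotypes; genes outside this rule are marked as named after their values were seen or for an overlap with a member. NEMP1 and NEMP2 were matched by older names after the tables were read.

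Alternative settings comprised DESeq2 1.42.0, RLE normalization, unstranded counts, no filter or at least 10 counts in every sample, the replicate number as a block, an adjusted p under 0.01, loess offsets (span 0.3) on exonic length and GC content, subtraction of the median of neighbours within 5 Mb, and leaving out each sample. Chi-square per gene between replicates was 7.20 to 33.9, so no pair agreed within sampling noise. On simulated data for this comparison with 19298 genes, edgeR recovered 154 of 200 changed genes, 106 of 118 changed by 2-fold or more, with 8 false calls, and DESeq2 recovered 147 with 18. The simulation changed far fewer genes than were called in the data and held no shifts by region, GC content or gene length. Its false calls therefore do not measure the error of this comparison.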

Additional observations from a re-analysis of the deposited data

Results flagged for a closer look

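Counts on the strand opposite to SYNE2, which enter none of the results except the setting with unstranded counts, were higher in all ARID1A-KO samples than in any WT sample. Their mean was 0.494 ± 0.081 CPM (scaled to the total of reverse-stranded counts) in ARID1A-KO samples, which held 0.424 to 0.583, against 0.304 ± 0.039 in WT samples, which held 0.267 to 0.345 (SD, n = 3 each), and the genotypes did not overlap. They rest on 16 to 49 counts per sample, under 1% of the counts of SYNE2 itself, and the difference was not tested. ESR2, the gene of estrogen receptor beta, is annotated on that strand across part of SYNE2 and is named after its values were seen. It had 0.387 ± 0.093 CPM in WT and 0.696 ± 0.061 CPM in ARID1A-KO samples, from 17 to 55 counts per sample. The log2 fold change of ESR2 was 0.83 (SE 0.24) with an adjusted p of 0.0234 in edgeR. Reads of the shared stretch can enter both counts, so these differences may not be separate observations.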

How the results depend on the processing

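LBR kept its call under all 16 other settings and LMNB2 under 12 of 16, and SUN1, called at an adjusted p of 0.0368, lost it under 10 of 16. Of the 10 members, 3 were called with the settings as described and 5 with no filter on low counts (1 higher, 4 lower). The GC content offset gave 5 members (all lower), and an adjusted p under 0.01 gave 1. Leaving out a sample gave 1 to 4 members, the 1 being without ARID1A-KO replicate 4. Over all genes, 8223 of 36390 were called with no filter and 6742 of 19599 with the GC content offset. At an adjusted p under 0.01, 4414 of all 19599 genes tested and 2 nucleoporin genes were called, against 7099 and 4. With a sample left out, calls numbered 5285 to 7050 over all genes, 13 to 17 over other envelope genes, 2 to 3 over nucleoporin genes (2 without WT replicate 5, ARID1A-KO replicate 3 or ARID1A-KO replicate 4) and 2 to 7 over proliferation genes. Offsets on GC content and on neighbours each gave 6 proliferation genes in place of 3. The sign turned for TMPO with the GC content offset (0.011), for SYNE2 (0.029) and TMEM201 (0.014) with the exonic length offset, for TMEM201 with a sample left out (-0.11 to 0.070), and for VPS4A (-0.011) and NUP93 (-0.0081) relative to neighbours. The cause of these changes was not tested. Other normalizations, filters and strands moved the median of all genes by less than 0.1.

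Same-numbered samples of the genotypes had correlations of -0.18, 0.27 and 0.18 between their deviations from the group means, so the numbers were not taken as pairs. With the replicate number as a block, 7477 genes and 3 members were called, SUN2 among them (-0.33, adjusted p = 0.0172) and SUN1 not (-0.17, adjusted p = 0.0593), and the lamin ratio had an exact sign-flip permutation p of 0.25, the smallest that 3 pairs allow. The lamin ratio differed by 0.30 to 0.50 with a sample left out and by 0.39 in unstranded TPM. The difference was also 0.39 in TMM CPM per kb and with 1 added. Those settings could hardly move it, since library scaling cancels in a ratio and 1 is small beside lamin TPM. No GC content offset was among these settings.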

Other observations

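SUN3 encodes a SUN protein known from the testis, and it was the best expressed gene of the SUN family in these cells per length. It had 208 ± 8.58 TPM in WT and 196 ± 6.01 TPM in ARID1A-KO samples (SD, n = 3 each), from 5699 to 8465 counts per sample, against 66.7 ± 0.47 TPM for SUN1 and 33.8 ± 2.43 TPM for SUN2 in WT. Its log2 fold change was -0.08 (adjusted p = 0.366 in edgeR), and it is named after its values were seen. The other SUN genes of germ cells were low in WT, SPAG4 at 1.64 ± 0.06 TPM and SUN5 at 0 to 2 counts in every sample. Whether the SUN3 counts stand for a full-length transcript cannot be read from gene-level counts.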
